A study of Mus musculus with 12 samples.

Results

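The genes described here encode the proteases that cut the extracellular matrix and the proteins that hold those proteases in check. They are the matrix metalloproteinases (MMPs), the ADAMTS proteases, the ADAMTS-like proteins and the tissue inhibitors of metalloproteinases (TIMPs). Members were picked by a rule on symbols, as the mouse genes named Mmp, Adamts, Adamtsl or Timp with their numbers. Earlier results of these data were known when members and gene lists were chosen. They numbered 51 of the 53819 entries in the count table, and 40 of them were among the 15698 genes that passed a filter on low counts and were tested. RNA was sequenced from 12 libraries of mouse stromal cell preparations, 3 in each of 4 groups, all labelled wild type. BM sorted held marrow cells from both hind limbs and the pelvis, grown on collagen I and, after their first passage, flow-sorted as cells with CD51 and Sca-1 but no CD31, CD45, Ly6C or F4/80. BM nonsorted held such cultures without the sort. BAC depleted held bone-associated cells freed from hind-limb bone fragments with collagenase I and then cleared of CD45, Ly6C and F4/80 carriers with magnetic beads. BAC nondepleted held such cells without the clearing. The medium lacked ascorbic acid and held 10% serum under hypoxia, and each library was made from 50 ng of RNA with a low-input kit. Strain, age and sex of the mice and the time in culture of the bone-associated cells were left unstated in the labels. Marrow and bone-associated groups differed in compartment, tissue digestion, plating and purification method at once, and the parts of these in any difference between them cannot be told apart.

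As background, MMPs and ADAMTS enzymes are zinc proteases that are made as inactive precursors and cut collagens, proteoglycans and other matrix proteins outside the cell or at its surface. TIMPs bind the active site of MMPs, and Timp3 also blocks several ADAMTS enzymes. ADAMTS-like proteins resemble the ADAMTS family but lack the catalytic domain and sit in the matrix near fibrillin. In bone, stromal cells and osteoblasts, chondrocytes, osteoclasts and macrophages each make their own selection of these genes.

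Libraries held 27937709 to 32164725 counts, of which the 51 genes took 0.675% to 1.11%. Levels are in CPM, counts scaled to library sizes that were adjusted by TMM. A gene was called where the p-value of edgeR's quasi-likelihood test, adjusted by Benjamini-Hochberg over all genes tested, was under 0.05. Each ± beside a log2 fold change is its standard error, and each ± beside a level is an SD over 3 libraries. The labels do not say whether libraries of a group came from separate mice or cultures, so p-values measure the spread between these libraries, which may be technical. BAC depleted 1 stood apart: it held 43406 counts of Xist and 0 of the Y-linked genes. Every other library had at most 16 counts of Xist and 4812 to 10999 of the Y-linked genes. BAC depleted 1 thus had the pattern of female cells and the others that of male cells, so its group held both. Mitochondrial transcripts took 1.82% to 2.62% of counts in BAC depleted and 1.08% to 1.36% in the other groups. Summed over 10 macrophage markers, levels were 7.70 to 9.10 CPM in BM sorted, against 2549 to 2925 CPM in BM nonsorted, and 6.71 to 12.5 CPM in BAC depleted, against 6451 to 8355 CPM in BAC nondepleted. The 7 fibroblast or stromal markers did not move as 1 group: 2 (Col1a1 and Col1a2) were higher and 3 (Lum, Dcn and Pdgfra) lower in BM sorted than in BAC depleted, and their summed level was 47632 to 49620 CPM in BM sorted, against 18554 to 25441 CPM in BAC depleted. Lum and Dcn had the lowest levels of them in marrow, at 0.325 ± 0.290 and 1.90 ± 1.01 CPM in BM sorted and 0.266 ± 0.354 and 0.614 ± 0.0863 CPM in BM nonsorted. Both were high in the bone-associated groups, at 175 ± 186 and 802 ± 376 CPM in BAC depleted and 488 ± 660.1 and 728 ± 809 CPM in BAC nondepleted.

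Of the 51 genes, 28 reached a mean of 10 CPM in at least 1 group, 12 were tested at lower levels, 8 fell under the filter and 3 had no counts in any library. The 3 without counts were Mmp7, Mmp20 and Adamts19. The 8 under the filter were Mmp1a, Mmp1b, Mmp10, Mmp21, Mmp24, Adamts8, Adamts13 and Adamtsl2, with 1 to 44 counts over all 12 libraries. Passing the filter needs a level in at least 1 group, so counts of differences below run over the 40 tested genes and not over all 51.

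**Figure D1:**
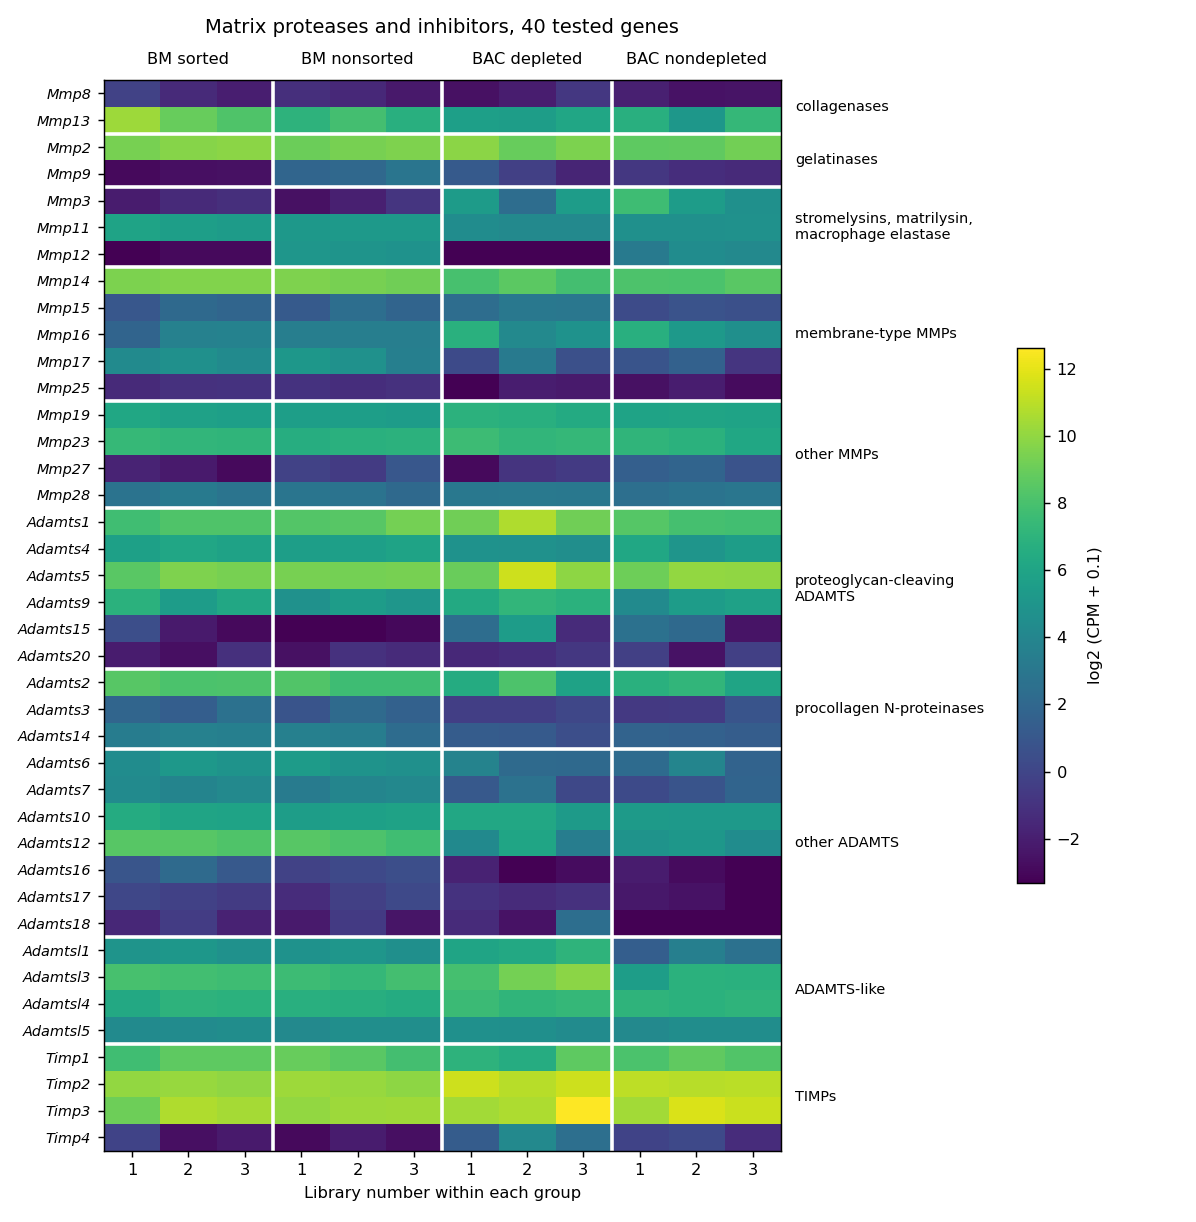
Level of each of the 40 tested genes in each of the 12 libraries, as log2 of CPM plus 0.1 on the colour scale. Columns are the libraries 1 to 3 of each group, and genes are ordered by role; Timp1, Timp2, Timp3, Mmp2, Mmp14 and Adamts5 were bright in all 12 libraries, and Mmp12 and Mmp9 were dark after the sort.

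Set per kilobase of exon, which allows genes to be compared within a group, Timp1, Timp2 and Timp3 stood at or near the top of the family. Timp4 ranked 37 in BM sorted, 41 in BM nonsorted, 25 in BAC depleted and 33 in BAC nondepleted. In BM sorted the order was Timp1 at 383 ± 127 CPM per kilobase, Timp2 at 289.9 ± 22.5, Mmp2 at 264 ± 42.9, Timp3 at 256 ± 124, Mmp13 at 254 ± 187 and Mmp14 at 178 ± 7.05. Neighbours among the first 5 of these were within 1 SD of each other. In BM nonsorted it was Timp1 at 412 ± 140.0, Timp2 at 299 ± 35.0, Timp3 at 256 ± 31.8, Mmp2 at 210.4 ± 35.6 and Mmp14 at 157 ± 20.5 CPM per kilobase. Timp2 and Timp3 led in the bone-associated cells. BAC depleted had Timp2 at 666 ± 120.1, Timp3 at 655 ± 588, Timp1 at 236 ± 192, Mmp2 at 231 ± 69.2 and Adamts1 at 194 ± 131 CPM per kilobase. BAC nondepleted had Timp2 at 545 ± 25.7, Timp3 at 523 ± 219, Timp1 at 377 ± 87.1, Mmp2 at 154 ± 35.0 and Adamts5 at 80.4 ± 26.2. Mmp2, a gelatinase of stromal cells, thus had the highest mean per length among the proteases in each of the 4 groups, though Mmp13 lay within 1 SD of it in BM sorted and Adamts1 in BAC depleted.

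A cluster on mouse chromosome 9 holds 10 of the MMP genes next to each other, in the order Mmp13, Mmp12, Mmp1b, Mmp3, Mmp1a, Mmp10, Mmp8, Mmp27, Mmp20 and Mmp7, with no other protein-coding gene between them in RefSeq (GRCm38.p6). Neighbours in it had unlike levels: Mmp13 was high in sorted marrow, Mmp12 was found at over 1 CPM in the unpurified libraries alone, Mmp3 was found at over 1 CPM in the bone-associated libraries alone, and Mmp10 was near 0 throughout. The promoters of these 4 genes are shown because that contrast runs through the results below and because all carry the same short motif. The motif TGANTCA, with any base at N, reads the same on both strands. With C or G at N it is the consensus bound by AP-1 (Fos and Jun proteins), and the match in Mmp20 has A there (TGAATCA). The motif occurs within 250 bases before to 50 after the start in 2565 of 32851 RefSeq promoters (7.81%), in 8 of the 10 cluster genes (80%) and in none of the 26 members elsewhere that have an entry (0 of 26), so in 8 of 36 members with an entry (22.2%). The share of all promoters counts each listed start, while a member counts if any of its starts has the motif, so these shares have unlike units. The 150 bases before the start are printed 5′ to 3′ from the plus strand of GRCm38.p6 (RefSeq), with the motif in capitals; Mmp12 has a second listed start whose window lacks it.
Mmp13, chr9:7272364-7272513: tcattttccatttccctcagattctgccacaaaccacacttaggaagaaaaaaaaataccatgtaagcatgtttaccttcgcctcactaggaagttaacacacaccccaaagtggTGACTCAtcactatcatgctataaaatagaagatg
Mmp12, chr9:7347224-7347373: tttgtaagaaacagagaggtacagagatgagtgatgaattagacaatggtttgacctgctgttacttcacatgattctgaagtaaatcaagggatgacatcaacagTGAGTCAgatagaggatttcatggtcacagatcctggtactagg
Mmp3, chr9:7445672-7445821: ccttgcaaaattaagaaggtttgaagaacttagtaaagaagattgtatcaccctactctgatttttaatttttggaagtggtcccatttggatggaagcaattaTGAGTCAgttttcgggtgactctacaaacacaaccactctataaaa
Mmp10, chr9:7502192-7502341: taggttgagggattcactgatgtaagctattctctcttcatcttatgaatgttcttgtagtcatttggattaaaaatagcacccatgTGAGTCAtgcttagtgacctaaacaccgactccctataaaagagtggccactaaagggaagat
The motif began 35 bases before the start in Mmp13, 44 in Mmp12, 46 in Mmp3 and 63 in Mmp10. Its presence describes these letters and was not set against any measure of binding.

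**Figure D2:**
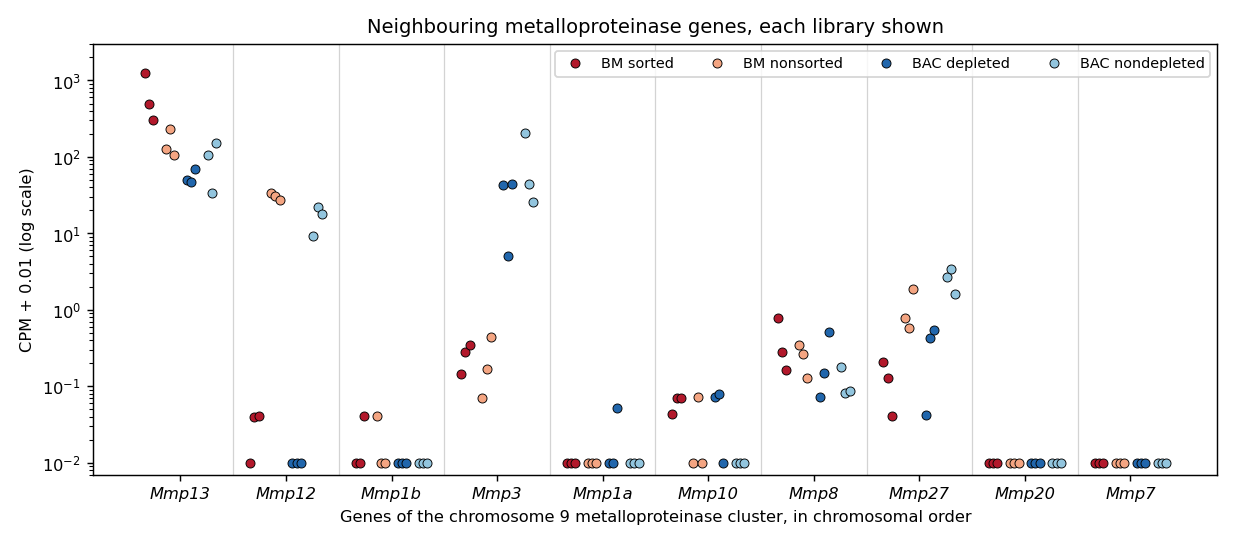
Level in CPM plus 0.01, on a log scale, of the 10 genes of the chromosome 9 cluster in chromosomal order, with 1 point per library and colours for the 4 groups. Mmp12 points of BM sorted and BAC depleted lie at the bottom, Mmp3 points of both bone-associated groups lie above those of marrow, and Mmp10, Mmp1a, Mmp1b, Mmp20 and Mmp7 lie at or near 0.

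Mmp12, the macrophage elastase, was the only member that edgeR called lower with purification in both compartments when all libraries were fitted. Mmp27, described below, was called lower with depletion by edgeR and with the sort by DESeq2 only. Mmp12 was counted at 0, 0.0300 and 0.0306 CPM in BM sorted, against 33.4, 31.0 and 27.7 CPM in BM nonsorted. Sorted marrow held 2 counts in all, against 3006 in unsorted marrow, a ratio of 1467 with a 95% counting interval of 406 to 12122 (adjusted p = 5.49e-06). In bone-associated cells it was counted at 0, 0 and 0 CPM in BAC depleted, against 9.13, 21.9 and 17.9 CPM in BAC nondepleted. With 0 counts after depletion against 1344 without it, Mmp12 was at least 449-fold lower in BAC depleted, with 3 counts taken as the lowest detectable sum of a group (adjusted p = 5.79e-06). Intervals and floors cover counting error only. Libraries of the compared groups did not overlap in either case, and both calls held with any 1 library left out. All 10 macrophage markers were called lower in both comparisons as well, against 6.06% of all genes with the sort and 19.9% with depletion. Between the unpurified groups 9 of the 10 were called lower in marrow, against 16.8% of all genes. The part of these markers in the Mmp12 values was not tested. In bulk RNA, fewer cells of a type and less RNA per cell cannot be told apart. Unpurified marrow and unpurified bone-associated cells had no difference in Mmp12 called by edgeR (log2 fold change 0.91 ± 0.31, adjusted p = 0.0563), though all BM nonsorted libraries were above all BAC nondepleted ones. DESeq2 called it (adjusted p = 0.0372), as did edgeR without BAC depleted 1, BAC depleted 2 or BAC nondepleted 2, 1 at a time (adjusted p = 0.0434 to 0.0477). The exons of Mmp12 overlap those of Mmp1b on the other strand, and the labels do not say whether counting used strand.

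Mmp9, gelatinase B, which osteoclasts, macrophages and neutrophils are known to make, fell with the sort but not with the depletion. Mmp9 had 0.0336, 0.0599 and 0.0613 CPM in BM sorted, against 3.51, 4.10 and 7.23 CPM in BM nonsorted. The sorted libraries held 1, 2 and 2 counts, the unsorted ones 114, 129 and 247 (log2 fold change -6.46 ± 0.87, adjusted p = 0.000684), and the call held with any 1 library left out. In bone-associated cells the levels were 2.19, 0.707 and 0.208 CPM in BAC depleted, against 0.503, 0.327 and 0.267 CPM in BAC nondepleted, and the ranges overlapped (log2 fold change 1.50 ± 0.69, adjusted p = 0.109). BAC depleted 1 alone supplied 69 of the 94 counts of its group. The effects of purification on Mmp9 differed between the compartments, with a log2 difference of -7.96 ± 1.10 (adjusted p = 0.00405) that was -6.80 without BAC depleted 1. Mmp9 was lower in BM sorted than in BAC depleted (log2 fold change -4.23 ± 0.85, adjusted p = 0.00253, and -3.06 without BAC depleted 1) and higher in BM nonsorted than in BAC nondepleted (log2 fold change 3.74 ± 0.71, adjusted p = 0.00423). Summed over 7 osteoclast markers the levels were 62.9 to 79.0 CPM in BM sorted, 80.0 to 91.3 in BM nonsorted, 61.1 to 77.7 in BAC depleted and 99.3 to 116 in BAC nondepleted. Of these markers Calcr, Ocstamp and Dcstamp were at 0 in BM sorted and Calcr, Dcstamp and Tnfrsf11a at 0 in BAC depleted. Only 2 of the 7 reached a mean of 1 CPM in each purified group, against 4 in each unpurified group. Of 4 tested, 2 were called lower with the sort, against 6.06% of all genes. With depletion 3 were lower and 1 (Ctsk) higher, against 19.9% and 17.4% of all genes. The 8 neutrophil markers summed to at most 2.702 CPM in any library, with S100a9 and Retnlg at 0 throughout. The part of other cell types in the Mmp9 result was not tested.

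Mmp2, gelatinase A, stood at 663, 854 and 916 CPM in BM sorted, against 531, 663 and 748 CPM in BM nonsorted, and at 916, 490.3 and 727 CPM in BAC depleted, against 404, 419 and 598 CPM in BAC nondepleted. It was high in all 12 libraries, and no comparison called it, with log2 fold changes of 0.32 ± 0.25 for the sort, 0.59 ± 0.25 for the depletion, 0.19 ± 0.25 between the purified groups and 0.45 ± 0.25 between the unpurified groups. Mmp14, the membrane protease that activates pro-MMP2 at the cell surface, stood at 711, 762 and 761 CPM in BM sorted, against 742, 660.3 and 571 CPM in BM nonsorted, and at 253, 389 and 234 CPM in BAC depleted, against 284, 277 and 366 CPM in BAC nondepleted. Marrow libraries were above all bone-associated libraries, and neither purification gave a call (log2 fold change 0.18 ± 0.20, adjusted p = 0.794 for the sort and log2 fold change -0.08 ± 0.20, adjusted p = 0.765 for the depletion). Mmp14 was higher in BM sorted than in BAC depleted (log2 fold change 1.35 ± 0.20, adjusted p = 0.000541) and in BM nonsorted than in BAC nondepleted (log2 fold change 1.09 ± 0.20, adjusted p = 0.00386), and both calls held with any 1 library left out.

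Other membrane-type MMPs were split between the compartments. Mmp17, which is held by a lipid anchor, stood at 20.01, 25.2 and 19.8 CPM in BM sorted, against 35.3, 26.2 and 11.7 CPM in BM nonsorted, and at 1.11, 9.23 and 1.42 CPM in BAC depleted, against 1.68, 2.94 and 0.457 CPM in BAC nondepleted. Every marrow library exceeded every bone-associated one, and Mmp17 was higher in BM sorted than in BAC depleted (log2 fold change 2.46 ± 0.82, adjusted p = 0.0315) and in BM nonsorted than in BAC nondepleted (log2 fold change 3.84 ± 0.88, adjusted p = 0.0101). Mmp17 lost its call between the purified groups without BM sorted 1, 2 or 3 and BAC depleted 1 or 3, 1 at a time (adjusted p = 0.0534 to 0.0851), and its log2 fold change was 4.10 without BAC depleted 2. Mmp17 had a log2 fold change between the unpurified groups of 4.49 without BAC nondepleted 2. Mmp16, a transmembrane member, ran the other way at 3.49, 13.0 and 13.2 CPM in BM sorted, against 11.4, 11.3 and 11.0 CPM in BM nonsorted, and at 114, 18.0 and 27.8 CPM in BAC depleted, against 106, 40.1 and 24.7 CPM in BAC nondepleted. It was lower in BM sorted than in BAC depleted (log2 fold change -2.42 ± 0.78, adjusted p = 0.0276) and in BM nonsorted than in BAC nondepleted (log2 fold change -2.34 ± 0.78, adjusted p = 0.044), with the highest values in the libraries numbered 1 of both bone-associated groups. Mmp16 lost its call between the purified groups without BM sorted 1, 2 or 3 and BAC depleted 1, 1 at a time (adjusted p = 0.0557 to 0.151), and its log2 fold change was -1.21 without BAC depleted 1. Mmp16 lost its call between the unpurified groups without BM sorted 2 or 3, BM nonsorted 1, 2 or 3 and BAC nondepleted 1 or 2, 1 at a time (adjusted p = 0.0563 to 0.174), and its log2 fold change was -1.53 without BAC nondepleted 1.

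Mmp15, also transmembrane, was a low gene with 1.91, 4.22 and 3.65 CPM in BM sorted, against 2.21, 5.34 and 3.42 CPM in BM nonsorted, and at 5.18, 8.13 and 7.96 CPM in BAC depleted, against 1.14, 1.56 and 1.41 CPM in BAC nondepleted. Depleted libraries lay above all nondepleted ones, and Mmp15 rose with depletion (log2 fold change 2.37 ± 0.39, adjusted p = 0.00113) while sorting left it uncalled (log2 fold change -0.16 ± 0.37, adjusted p = 0.918). These effects differed by -2.53 ± 0.54 (adjusted p = 0.0216). Mmp15 lost its call for the difference of the effects without BM sorted 3 (adjusted p = 0.0556), BM nonsorted 2 (adjusted p = 0.0558) and BAC nondepleted 1 (adjusted p = 0.0572). Between compartments Mmp15 was lower in BM sorted than in BAC depleted (log2 fold change -1.12 ± 0.37, adjusted p = 0.0309) and higher in BM nonsorted than in BAC nondepleted (log2 fold change 1.41 ± 0.38, adjusted p = 0.0195). Mmp15 lost its call between the purified groups without BM sorted 1 or 3 and BAC depleted 2 or 3, 1 at a time (adjusted p = 0.0647 to 0.0926). Mmp15 lost its call between the unpurified groups without BM nonsorted 2 (adjusted p = 0.083) and BAC nondepleted 1 (adjusted p = 0.0723). Mmp25, the other lipid-anchored member, was at 0.269 to 0.398 CPM in BM sorted, 0.318 to 0.400 in BM nonsorted, 0 to 0.141 in BAC depleted and 0.0381 to 0.145 in BAC nondepleted. It was called higher in marrow between the purified groups (log2 fold change 1.99 ± 0.69, adjusted p = 0.0359) and between the unpurified groups (log2 fold change 2.08 ± 0.69, adjusted p = 0.042), at levels that make both calls fragile. Mmp25 lost its call between the purified groups without BM sorted 2 or 3, BM nonsorted 1, 2 or 3, BAC depleted 3 and BAC nondepleted 1, 1 at a time (adjusted p = 0.0501 to 0.0965), and its log2 fold change was 1.37 without BAC depleted 1. Mmp25 lost its call between the unpurified groups without BM sorted 1, 2 or 3, BM nonsorted 1, 2 or 3 and BAC nondepleted 1, 2 or 3, 1 at a time (adjusted p = 0.0557 to 0.132), and its log2 fold change was 2.69 without BAC nondepleted 2.

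Mmp13, a collagenase of osteoblasts and hypertrophic chondrocytes, had its highest levels in sorted marrow. It stood at 1245, 488 and 304 CPM in BM sorted, against 128, 230.3 and 106 CPM in BM nonsorted, and at 50.1, 46.5 and 68.7 CPM in BAC depleted, against 105, 33.9 and 154 CPM in BAC nondepleted. Sorted marrow libraries lay above all other libraries, and among them BM sorted 1 was far above the rest of its group. Against BAC depleted the difference was called (log2 fold change 3.62 ± 0.66, adjusted p = 0.0016). Mmp13 had a log2 fold change of 2.85 without BM sorted 1. Against BM nonsorted it was not, though the libraries did not overlap (log2 fold change 2.13 ± 0.62, adjusted p = 0.0856), and neither was the depletion effect (log2 fold change -0.83 ± 0.60, adjusted p = 0.302), the difference of the effects (log2 fold change 2.96 ± 0.86, adjusted p = 0.0619) or the comparison of the unpurified groups (log2 fold change 0.66 ± 0.60, adjusted p = 0.422). DESeq2 called Mmp13 higher with the sort (adjusted p = 0.00336) and for the difference of the effects (adjusted p = 0.00395). Summed over 6 osteoblast markers, BM sorted held 760 to 1278 CPM, with BM sorted 1 highest, BM nonsorted 244 to 612, BAC depleted 162 to 859 and BAC nondepleted 67.3 to 116 CPM. Of 5 tested osteoblast markers the sort called none (0 by edgeR and by DESeq2), against 6.23% of all genes. With depletion 4 rose, against 17.4% of all genes. Between the purified groups 2 were higher and 1 lower in marrow, against 22.9% and 24.6% of all genes. Between the unpurified groups 3 were higher in marrow, against 14.9% of all genes. The part of these markers in the Mmp13 values was not tested. Mmp8, the neutrophil collagenase, stayed at or under 0.772 CPM in every library and was called in no comparison.

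Mmp3, stromelysin 1, separated the compartments by the widest fitted margin among members seen in all 12 libraries. It stood at 0.134, 0.270 and 0.337 CPM in BM sorted, against 0.0615, 0.159 and 0.439 CPM in BM nonsorted, and at 43.1, 5.13 and 44.8 CPM in BAC depleted, against 205, 44.9 and 25.6 CPM in BAC nondepleted. Marrow libraries were all under 1 CPM and bone-associated ones all over 5 CPM. Mmp3 was lower in BM sorted than in BAC depleted (log2 fold change -6.93 ± 1.20, adjusted p = 0.00121) and in BM nonsorted than in BAC nondepleted (log2 fold change -8.66 ± 1.27, adjusted p = 0.00145), and both calls held with any 1 library left out. Mmp3 had a log2 fold change between the unpurified groups of -9.66 without BM nonsorted 3 and -7.29 without BAC nondepleted 1. Neither purification changed it by the test (log2 fold change 0.16 ± 1.47, adjusted p = 0.983 for the sort and log2 fold change -1.57 ± 0.86, adjusted p = 0.177 for the depletion).

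Mmp11, stromelysin 3, a furin-activated enzyme of stromal cells, stood at 61.7, 48.0 and 43.5 CPM in BM sorted, against 35.6, 40.1 and 39.4 CPM in BM nonsorted, and at 21.8, 17.7 and 18.0 CPM in BAC depleted, against 25.4, 26.1 and 26.9 CPM in BAC nondepleted. Its spread within groups was small, so modest differences were called. It fell with depletion (log2 fold change -0.45 ± 0.13, adjusted p = 0.0249), was uncalled with the sort although sorted libraries were all higher (log2 fold change 0.41 ± 0.13, adjusted p = 0.131), and the effects differed by 0.86 ± 0.19 (adjusted p = 0.0243). Mmp11 lost its call with depletion without BAC depleted 2 or 3 and BAC nondepleted 2 or 3, 1 at a time (adjusted p = 0.0571 to 0.065). Mmp11 lost its call for the difference of the effects without BM nonsorted 1 (adjusted p = 0.0615), BM nonsorted 2 (adjusted p = 0.0552) and BAC nondepleted 2 (adjusted p = 0.0551). It was higher in BM sorted than in BAC depleted (log2 fold change 1.41 ± 0.14, adjusted p = 5.79e-05) and in BM nonsorted than in BAC nondepleted (log2 fold change 0.55 ± 0.13, adjusted p = 0.012), calls that held with any 1 library left out.

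Mmp19, a widely expressed secreted MMP, stood at 70.7, 55.5 and 51.3 CPM in BM sorted, against 49.3, 49.3 and 45.7 CPM in BM nonsorted, and at 119, 106 and 84.4 CPM in BAC depleted, against 60.2, 63.5 and 61.1 CPM in BAC nondepleted. Depleted libraries were above all others, and the gene rose with depletion (log2 fold change 0.74 ± 0.14, adjusted p = 0.00259) and was lower in BM sorted than in BAC depleted (log2 fold change -0.80 ± 0.14, adjusted p = 0.00129). The sort (log2 fold change 0.30 ± 0.14, adjusted p = 0.368) and the comparison of the unpurified groups (log2 fold change -0.36 ± 0.14, adjusted p = 0.0775) were uncalled by edgeR, with no overlap of libraries in either, and DESeq2 called it lower between the unpurified groups (adjusted p = 0.0453). Its exons overlap Tmem198b and Gm47093 on the other strand. Mmp23, an MMP made as a membrane protein, stood at 166, 145 and 139.7 CPM in BM sorted, against 98.5, 114 and 122 CPM in BM nonsorted, and at 197, 146 and 160.4 CPM in BAC depleted, against 136, 115 and 72.0 CPM in BAC nondepleted. It rose with depletion (log2 fold change 0.64 ± 0.21, adjusted p = 0.0358) and was called nowhere else. Mmp23 lost its call with depletion without BM sorted 2 or 3, BM nonsorted 2, BAC depleted 1 or 3 and BAC nondepleted 2 or 3, 1 at a time (adjusted p = 0.0516 to 0.108). Mmp27, also of the chromosome 9 cluster, was at 0.0306 to 0.201 CPM in BM sorted, 0.572 to 1.87 in BM nonsorted, 0.0318 to 0.542 in BAC depleted and 1.60 to 3.38 in BAC nondepleted. Mmp27 fell with depletion (log2 fold change -2.96 ± 0.80, adjusted p = 0.0152) and missed the threshold with the sort (log2 fold change -3.17 ± 0.86, adjusted p = 0.0631), where the libraries did not overlap. Without BAC depleted 1 the sort was called (adjusted p = 0.0151), and DESeq2 called it with all libraries (adjusted p = 0.00436). Mmp28, epilysin, ranged over 6.71 to 9.38 CPM in BM sorted, 4.36 to 7.14 in BM nonsorted, 8.17 to 8.73 in BAC depleted and 5.60 to 7.47 in BAC nondepleted and was called in no comparison; 1700020L24Rik overlaps it on the other strand.

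**Figure D3:**
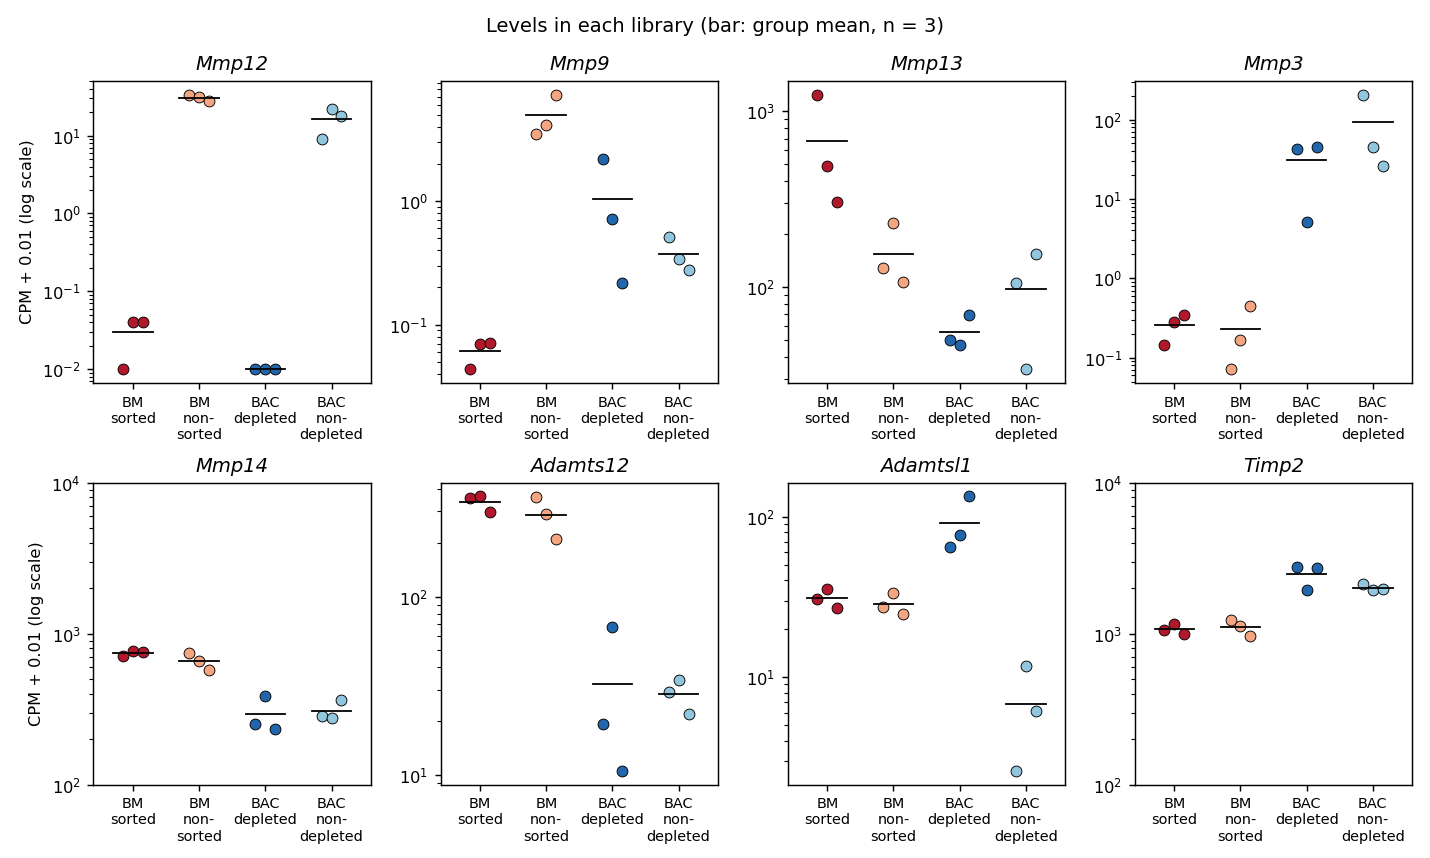
CPM plus 0.01, on a log scale, of Mmp12, Mmp9, Mmp13, Mmp3, Mmp14, Adamts12, Adamtsl1 and Timp2 in each library, with a bar at the mean of each group (n = 3). Mmp12 lies lowest in BAC depleted and next in BM sorted, Mmp9 lies lowest in BM sorted, Mmp14 and Adamts12 lie higher in marrow, Mmp3 and Timp2 lie higher in bone-associated cells, and Adamtsl1 is lowest in BAC nondepleted.

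Of the ADAMTS enzymes that cut aggrecan and versican, 6 were tested. Of these 2 rose and 1 fell with depletion, where 17.4% of all genes were higher and 19.9% lower. The sort called none (0 of 6 by edgeR and by DESeq2, with 1 higher at an unadjusted p under 0.05). Over all genes the sort called 6.23%. Levels within the list ran over a wide range, with Adamts5 and Adamts1 over 200 CPM in every library and Adamts20 under 1 CPM. Adamts5, the main aggrecan-cleaving enzyme of mouse cartilage, stood at 379, 729 and 659 CPM in BM sorted, against 659.6, 615 and 653 CPM in BM nonsorted, and at 503, 2761 and 979 CPM in BAC depleted, against 541, 1043 and 1017 CPM in BAC nondepleted. Ranges overlapped between all groups compared and edgeR called it in no comparison, while DESeq2 called it lower in BM sorted than in BAC depleted (adjusted p = 0.028); between the purified groups it was log2 fold change -1.26 ± 0.53, adjusted p = 0.0755, and -1.67 with an adjusted p of 0.0133 without BAC depleted 1. Adamts1, which also cuts versican, stood at 208, 299.8 and 299.7 CPM in BM sorted, against 322, 350.0 and 623 CPM in BM nonsorted, and at 585, 1689 and 570.0 CPM in BAC depleted, against 347, 241 and 224 CPM in BAC nondepleted. Depleted libraries were above all nondepleted ones, and the gene rose with depletion (log2 fold change 1.81 ± 0.44, adjusted p = 0.00999) and was lower in BM sorted than in BAC depleted (log2 fold change -1.82 ± 0.44, adjusted p = 0.0074). BAC depleted 2 was the highest of its group for Adamts1 and Adamts5. Adamts1 had a log2 fold change with depletion of 1.09 without BAC depleted 2. Adamts1 had a log2 fold change between the purified groups of -1.10 without BAC depleted 2. The sort left Adamts1 uncalled (log2 fold change -0.68 ± 0.43, adjusted p = 0.553), and the effects differed by -2.49 ± 0.62 (adjusted p = 0.0382). Adamts1 lost its call for the difference of the effects without BM sorted 1, 2 or 3, BM nonsorted 1, 2 or 3 and BAC nondepleted 1, 2 or 3, 1 at a time (adjusted p = 0.0586 to 0.0897), and its log2 fold change was -1.77 without BAC depleted 2.

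Adamts9, a versican-cleaving enzyme, stood at 115, 45.2 and 74.8 CPM in BM sorted, against 26.7, 44.0 and 33.7 CPM in BM nonsorted, and at 82.8, 144 and 115 CPM in BAC depleted, against 19.5, 44.7 and 54.6 CPM in BAC nondepleted. Purified libraries were above their unpurified counterparts in each compartment, with a call for the depletion (log2 fold change 1.53 ± 0.42, adjusted p = 0.0179) and none for the sort (log2 fold change 1.17 ± 0.42, adjusted p = 0.19). Its exons overlap A730049H05Rik and Gm15737 on the other strand. Adamts4, another aggrecan-cleaving enzyme, stood at 54.0, 68.1 and 57.3 CPM in BM sorted, against 48.8, 50.6 and 61.4 CPM in BM nonsorted, and at 27.9, 27.2 and 23.5 CPM in BAC depleted, against 70.9, 32.2 and 46.7 CPM in BAC nondepleted. It ran opposite to Adamts1 and Adamts9 in bone-associated cells and fell with depletion (log2 fold change -0.93 ± 0.24, adjusted p = 0.0124). BM sorted exceeded BAC depleted (log2 fold change 1.19 ± 0.24, adjusted p = 0.00266), and the unpurified groups were uncalled (log2 fold change 0.10 ± 0.24, adjusted p = 0.768). DESeq2 but not edgeR called the difference of the effects on Adamts4 (1.10, adjusted p = 0.0243). Adamts15 was seen almost only in bone-associated cells, with 1.31, 0.120 and 0.0306 CPM in BM sorted, against 0, 0 and 0.0293 CPM in BM nonsorted, and at 5.09, 45.4 and 0.292 CPM in BAC depleted, against 5.94, 4.29 and 0.0762 CPM in BAC nondepleted. Its counts numbered 1 over the BM nonsorted libraries and 297 over the BAC nondepleted ones, a level 349-fold lower in BM nonsorted with a 95% counting interval of 62.1 to 13826 (adjusted p = 0.0458). Between the purified groups, BM sorted was lower with overlapping ranges (log2 fold change -5.13 ± 1.84, adjusted p = 0.0415). Adamts15 lost its call between the purified groups without BM sorted 2 or 3, BM nonsorted 1, 2 or 3, BAC depleted 2 and BAC nondepleted 1 or 2, 1 at a time (adjusted p = 0.0516 to 0.228), and its log2 fold change was -7.72 without BM sorted 1, -2.48 without BAC depleted 2 and -5.72 without BAC depleted 3. Adamts15 lost its call between the unpurified groups without BM sorted 2 or 3, BM nonsorted 1, 2 or 3 and BAC nondepleted 1 or 2, 1 at a time (adjusted p = 0.0516 to 0.13), and its log2 fold change was -9.68 without BM nonsorted 3 and -7.26 without BAC nondepleted 1. Adamts20, a low member, did not exceed 0.724 CPM in any library and was called nowhere.

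Summed over 6 chondrocyte markers, the libraries of BAC depleted held 2059, 4177 and 21869 CPM and those of BAC nondepleted 209, 872 and 2652 CPM. BM sorted held 1105 to 3968 CPM and BM nonsorted 2992 to 3986 CPM. The markers did not move together. Of 6 tested, edgeR called 0 with the sort and 4 higher with depletion, against 6.23% of all genes called and 17.4% higher. Between the purified groups 1 was higher and 3 lower in marrow, against 22.9% and 24.6% of all genes. Between the unpurified groups 1 was higher and 1 lower, against 14.9% and 16.8% of all genes. Acan was among the lower ones in both. Aggrecan itself (Acan), the substrate of Adamts4 and Adamts5, had 126, 303 and 729 CPM in BAC depleted, against 0.638, 4.18 and 32.9 CPM in BAC nondepleted, and it rose with depletion (log2 fold change 4.95 ± 1.23, adjusted p = 0.0107). Acan had a log2 fold change with depletion of 4.09 without BAC depleted 3 and 7.32 without BAC nondepleted 3. These levels varied among libraries of a group more than those of most proteases, and their part in the ADAMTS results was not tested.

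The procollagen N-proteinases, which trim fibrillar procollagens, were higher in marrow for Adamts14 and Adamts3. Adamts2, the main enzyme for type I procollagen, stood at 358, 277 and 291 CPM in BM sorted, against 308, 207 and 201 CPM in BM nonsorted, and at 90.1, 285 and 59.4 CPM in BAC depleted, against 110.2, 143 and 63.0 CPM in BAC nondepleted. It was uncalled in every comparison, with log2 fold change 1.09 ± 0.52, adjusted p = 0.107 between the purified groups and log2 fold change 1.18 ± 0.52, adjusted p = 0.107 between the unpurified groups. Adamts14 stood at 10.4, 12.6 and 11.9 CPM in BM sorted, against 12.4, 10.7 and 4.95 CPM in BM nonsorted, and at 2.35, 2.19 and 1.33 CPM in BAC depleted, against 3.29, 3.02 and 2.55 CPM in BAC nondepleted. Marrow libraries were above all bone-associated ones, in BM sorted against BAC depleted (log2 fold change 2.56 ± 0.34, adjusted p = 0.000261) and in BM nonsorted against BAC nondepleted (log2 fold change 1.66 ± 0.33, adjusted p = 0.00498). Adamts3, which also activates the lymphatic growth factor VEGF-C, was at 2.67 to 5.94 CPM in BM sorted, 1.69 to 4.42 in BM nonsorted, 0.668 to 0.958 in BAC depleted and 0.537 to 1.68 in BAC nondepleted. It was higher in marrow in both comparisons (log2 fold change 2.40 ± 0.54, adjusted p = 0.00475 between the purified groups and log2 fold change 1.73 ± 0.53, adjusted p = 0.0307 between the unpurified groups). Adamts3 lost its call between the unpurified groups without BM nonsorted 2 or 3 and BAC nondepleted 1 or 2, 1 at a time (adjusted p = 0.0641 to 0.114), and its log2 fold change was 2.48 without BAC nondepleted 3.

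Adamts12 and Adamts7, related enzymes that cut cartilage oligomeric matrix protein (COMP), were marrow genes in these libraries. Adamts12 stood at 359, 364 and 298 CPM in BM sorted, against 362, 292 and 209 CPM in BM nonsorted, and at 19.1, 67.1 and 10.5 CPM in BAC depleted, against 29.1, 34.1 and 21.9 CPM in BAC nondepleted. The lowest marrow library had over 200 CPM and the highest bone-associated one under 70 CPM. BM sorted exceeded BAC depleted (log2 fold change 3.40 ± 0.59, adjusted p = 0.00119) and BM nonsorted exceeded BAC nondepleted (log2 fold change 3.34 ± 0.59, adjusted p = 0.00308). Adamts12 had a log2 fold change between the purified groups of 4.52 without BAC depleted 2. Depletion left it uncalled (log2 fold change 0.19 ± 0.54, adjusted p = 0.806), but without BAC depleted 2 the log2 fold change was -0.94 with an adjusted p of 0.0383. Adamts7 stood at 19.9, 14.7 and 17.9 CPM in BM sorted, against 9.84, 15.2 and 17.1 CPM in BM nonsorted, and at 2.13, 6.29 and 0.9999 CPM in BAC depleted, against 1.07, 1.64 and 3.47 CPM in BAC nondepleted. It too was higher in BM sorted than in BAC depleted (log2 fold change 2.47 ± 0.61, adjusted p = 0.00783) and in BM nonsorted than in BAC nondepleted (log2 fold change 2.77 ± 0.62, adjusted p = 0.00909), and its exons overlap Tbc1d2b on the other strand. Adamts7 had a log2 fold change between the purified groups of 3.46 without BAC depleted 2. Adamts7 had a log2 fold change between the unpurified groups of 3.37 without BAC nondepleted 3. Comp, the substrate, ran the other way. It had 25.5, 33.6 and 9.99 CPM in BM sorted, against 8465, 4412 and 7779.6 CPM in BAC depleted, and 8.15, 8.61 and 7.52 CPM in BM nonsorted, against 1110.3, 2837 and 1949.7 CPM in BAC nondepleted.

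Adamts6 and Adamts10, which act on fibrillin microfibrils, behaved differently from each other. Adamts6 stood at 21.8, 36.5 and 29.1 CPM in BM sorted, against 43.1, 28.8 and 25.4 CPM in BM nonsorted, and at 14.2, 4.53 and 4.29 CPM in BAC depleted, against 4.67, 15.4 and 3.20 CPM in BAC nondepleted. Marrow libraries were above all bone-associated ones (log2 fold change 1.92 ± 0.62, adjusted p = 0.0274 between the purified groups and log2 fold change 2.06 ± 0.62, adjusted p = 0.0304 between the unpurified groups). Adamts6 lost its call between the purified groups without BM sorted 2 or 3 and BAC depleted 2 or 3, 1 at a time (adjusted p = 0.0601 to 0.0845), and its log2 fold change was 2.72 without BAC depleted 1. Adamts6 lost its call between the unpurified groups without BM nonsorted 1 or 2 and BAC nondepleted 1 or 3, 1 at a time (adjusted p = 0.0626 to 0.105), and its log2 fold change was 3.04 without BAC nondepleted 2. Adamts10 stood at 89.6, 64.0 and 61.4 CPM in BM sorted, against 47.3, 54.2 and 58.8 CPM in BM nonsorted, and at 74.0, 76.2 and 41.0 CPM in BAC depleted, against 42.0, 39.6 and 38.6 CPM in BAC nondepleted. It rose with depletion with overlapping ranges (log2 fold change 0.67 ± 0.22, adjusted p = 0.0385), while the sorted libraries, all above the unsorted ones, gave no call (log2 fold change 0.42 ± 0.22, adjusted p = 0.438). Adamts10 lost its call with depletion without BM sorted 2, BM nonsorted 2 or 3, BAC depleted 1 or 2 and BAC nondepleted 1, 2 or 3, 1 at a time (adjusted p = 0.0501 to 0.113).

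Adamts16, Adamts17 and Adamts18 were scarce. Adamts16 was at 1.75 to 4.40 CPM in BM sorted, 0.769 to 1.32 in BM nonsorted, 0 to 0.191 in BAC depleted and 0 to 0.134 in BAC nondepleted. It was higher in marrow between the purified groups (log2 fold change 5.00 ± 0.89, adjusted p = 0.00131) and between the unpurified groups (log2 fold change 4.06 ± 0.92, adjusted p = 0.00915). Adamts16 had a log2 fold change between the purified groups of 6.86 without BAC depleted 1. Adamts16 had a log2 fold change between the unpurified groups of 5.53 without BAC nondepleted 1. Adamts17 was at 0.582 to 0.940 CPM in BM sorted, 0.308 to 1.05 in BM nonsorted, 0.283 to 0.413 in BAC depleted and 0 to 0.101 in BAC nondepleted. It rose with depletion (log2 fold change 2.51 ± 0.71, adjusted p = 0.0192) and was higher in BM nonsorted than in BAC nondepleted (log2 fold change 3.45 ± 0.69, adjusted p = 0.00521). Adamts17 lost its call with depletion without BAC nondepleted 2 (adjusted p = 0.0511), and its log2 fold change was 3.13 without BAC nondepleted 1. Adamts17 had a log2 fold change between the unpurified groups of 4.07 without BAC nondepleted 1. Adamts18 had 139 counts in BAC depleted, at 0.0707 to 5.33 CPM, against 0 in BAC nondepleted, which makes it at least 46.2-fold higher in BAC depleted with the same lowest sum of 3 counts (adjusted p = 0.0262). Most of those counts came from 1 library. Adamts18 lost its call with depletion without BAC depleted 3 and without BAC nondepleted 1, 2 or 3, 1 at a time (adjusted p = 0.0527 to 0.061). In marrow it had 0.0601 ± 0.0401 CPM per kilobase in BM sorted and 0.0444 ± 0.0446 in BM nonsorted. DESeq2 but not edgeR called it higher in BM nonsorted than in BAC nondepleted (log2 fold change 5.21, adjusted p = 0.0149). The same held for the difference of the effects (-7.70, adjusted p = 0.00912 by DESeq2).

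Of 4 tested ADAMTS-like genes, Adamtsl1 and Adamtsl3 differed in their response to the purifications by the test of that difference. Over all genes, 8.06% were called by that test. Adamtsl1 (punctin) stood at 30.6, 35.1 and 26.9 CPM in BM sorted, against 27.5, 33.6 and 24.7 CPM in BM nonsorted, and at 64.3, 77.4 and 134 CPM in BAC depleted, against 2.58, 11.7 and 6.10 CPM in BAC nondepleted. Depleted libraries were far above nondepleted ones, and marrow libraries differed little with the sort. Adamtsl1 rose with depletion (log2 fold change 3.75 ± 0.49, adjusted p = 0.000283), was uncalled with the sort (log2 fold change 0.11 ± 0.44, adjusted p = 0.96), and the effects differed by -3.64 ± 0.64 (adjusted p = 0.0107). That difference was called with any 1 library left out. Adamtsl1 had a log2 fold change with depletion of 4.40 without BAC nondepleted 2. Adamtsl1 had a log2 fold change for the difference of the effects of -4.29 without BAC nondepleted 2. Adamtsl1 was lower in BM sorted than in BAC depleted (log2 fold change -1.57 ± 0.45, adjusted p = 0.0154) and higher in BM nonsorted than in BAC nondepleted (log2 fold change 2.07 ± 0.46, adjusted p = 0.00878). Adamtsl1 lost its call between the purified groups without BM sorted 3 (adjusted p = 0.0604) and BAC depleted 3 (adjusted p = 0.0544). Adamtsl1 had a log2 fold change between the unpurified groups of 2.72 without BAC nondepleted 2.

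Adamtsl3 stood at 257, 226 and 200.4 CPM in BM sorted, against 193, 155 and 229 CPM in BM nonsorted, and at 239, 631 and 921 CPM in BAC depleted, against 47.6, 114 and 111 CPM in BAC nondepleted. It too rose with depletion (log2 fold change 2.71 ± 0.47, adjusted p = 0.00161) and not with the sort (log2 fold change 0.25 ± 0.44, adjusted p = 0.893), with a difference of -2.47 ± 0.64 between the effects (adjusted p = 0.044). Adamtsl3 lost its call for the difference of the effects without any library but BAC depleted 1 (adjusted p = 0.0602 to 0.115). BM sorted was lower than BAC depleted with overlapping ranges (log2 fold change -1.39 ± 0.45, adjusted p = 0.0282). Adamtsl3 lost its call between the purified groups without BM sorted 1, 2 or 3 and BAC depleted 2 or 3, 1 at a time (adjusted p = 0.0547 to 0.11). Adamtsl4, a fibrillin-binding member, stood at 78.3, 127 and 117 CPM in BM sorted, against 107, 101 and 91.5 CPM in BM nonsorted, and at 190.4, 141 and 159 CPM in BAC depleted, against 130.0, 118 and 131 CPM in BAC nondepleted. It was lower in BM sorted than in BAC depleted (log2 fold change -0.61 ± 0.17, adjusted p = 0.0156). Adamtsl4 lost its call between the purified groups without BAC depleted 1 (adjusted p = 0.0504). Adamtsl5 stood at 20.04, 20.2 and 22.4 CPM in BM sorted, against 18.1, 23.4 and 23.1 CPM in BM nonsorted, and at 25.3, 24.6 and 20.8 CPM in BAC depleted, against 17.9, 22.4 and 22.8 CPM in BAC nondepleted. It hardly varied, and its log2 fold changes were -0.04 ± 0.14 for the sort, 0.17 ± 0.14 for the depletion, -0.18 ± 0.14 between the purified groups and 0.03 ± 0.14 between the unpurified groups, none of them called.

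Among the inhibitors, Timp2 was lower in marrow in both comparisons of compartments and Timp4 between the purified groups. Timp2, which also takes part in pro-MMP2 activation by Mmp14, stood at 1056, 1167 and 1003 CPM in BM sorted, against 1229, 1123 and 970.3 CPM in BM nonsorted, and at 2749, 1958 and 2708 CPM in BAC depleted, against 2129.6, 1949.7 and 1985 CPM in BAC nondepleted. All bone-associated libraries were above all marrow ones. Timp2 was lower in BM sorted than in BAC depleted (log2 fold change -1.20 ± 0.17, adjusted p = 0.000383) and in BM nonsorted than in BAC nondepleted (log2 fold change -0.87 ± 0.17, adjusted p = 0.00469), opposite to Mmp14, and both calls held with any 1 library left out. Neither purification changed Timp2 by the test (log2 fold change -0.04 ± 0.17, adjusted p = 0.96 for the sort and log2 fold change 0.29 ± 0.17, adjusted p = 0.197 for the depletion). Timp4 was scarce, at 0.0599 to 0.839 CPM in BM sorted, 0.0308 to 0.127 in BM nonsorted, 2.38 to 17.8 in BAC depleted and 0.305 to 1.05 in BAC nondepleted. It rose with depletion (log2 fold change 3.53 ± 0.97, adjusted p = 0.0171) and was lower in BM sorted than in BAC depleted (log2 fold change -4.65 ± 1.04, adjusted p = 0.00468). Between BM nonsorted and BAC nondepleted it was uncalled by edgeR (log2 fold change -3.29 ± 1.17, adjusted p = 0.0548), with no overlap of libraries, and called lower by DESeq2 (adjusted p = 0.00692). Timp4 lost its call with depletion without BAC depleted 2 (adjusted p = 0.056), BAC nondepleted 1 (adjusted p = 0.0522) and BAC nondepleted 3 (adjusted p = 0.0586), and its log2 fold change was 2.40 without BAC depleted 2. Timp4 had a log2 fold change between the purified groups of -6.48 without BM sorted 1 and -3.53 without BAC depleted 2. The exons of Timp4 overlap those of Syn2 on the other strand.

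Timp1, the inducible secreted inhibitor, stood at 210.0, 413 and 398 CPM in BM sorted, against 484, 376 and 236 CPM in BM nonsorted, and at 129, 94.98 and 405 CPM in BAC depleted, against 272, 421 and 311 CPM in BAC nondepleted. The ranges overlapped in every comparison of groups and none was called. Timp3, the matrix-bound inhibitor, stood at 549, 1669 and 1404 CPM in BM sorted, against 1039.6, 1255 and 1329 CPM in BM nonsorted, and at 1371, 1612 and 6299 CPM in BAC depleted, against 1373, 3432 and 2609 CPM in BAC nondepleted. BAC depleted 3 held far more than any other library. Timp3 was uncalled by edgeR in every comparison, with log2 fold change -1.36 ± 0.62, adjusted p = 0.0946 between the purified groups, and -1.72 with an adjusted p of 0.0448 without BAC depleted 1. DESeq2 called it there (adjusted p = 0.037).

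Taken by comparison, the sort of marrow cultures moved few of these genes. Of 40 tested members 2 were called lower, Mmp12 and Mmp9, and 0 higher, which is 5% against 6.23% of all genes (6.06% lower and 0.166% higher). The DESeq2 Wald test gave 1 higher call (Mmp13) and added Mmp27 to the lower ones. The edgeR test without BAC nondepleted 2 also gave 1 higher call, and 3 members were higher at an unadjusted p under 0.05. Libraries did not overlap for 8 members that were higher and 4 that were lower, 12 of 40, against 28.7% of all genes (12.1% higher and 16.7% lower). The median log2 fold change of the tested members was 0.17, against 0.00 for all genes.

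Depletion of the bone-associated cells moved more. It called 11 members higher (Adamts1, Adamts9, Adamts10, Adamts17, Adamts18, Adamtsl1, Adamtsl3, Mmp15, Mmp19, Mmp23 and Timp4) and 4 lower (Adamts4, Mmp11, Mmp12 and Mmp27). That is 37.5% of 40, close to the 37.3% of all genes called (17.4% higher and 19.9% lower). By direction, 27.5% of the members were higher and 10% lower. Without BAC depleted 1 there were 9 higher and 4 lower, all among those named. Fits of these groups alone gave 7 higher and 2 lower, and fits without a filter on low counts gave 7 higher. Leaving out BAC nondepleted 2 or BAC nondepleted 3 gave 7 higher. Libraries did not overlap for 12 higher and 5 lower members, against 46.3% of all genes (21.4% higher and 24.9% lower). The median log2 fold change was 0.41, against 0.05 for all genes, and setting Mmp12 and Adamts18 at their bounds left it unchanged. By edgeR with all libraries, Mmp12 was the only member called in the same direction by the sort and the depletion. That is 50% of the 2 calls of the sort and 25% of the 4 lower calls of the depletion. DESeq2 also called Mmp27 lower with the sort (adjusted p = 0.00436). Over all genes, 5.53% were lower in both, which is 91.2% and 27.7% of the lower calls, and 0.0701% were higher in both.

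**Figure D4:**
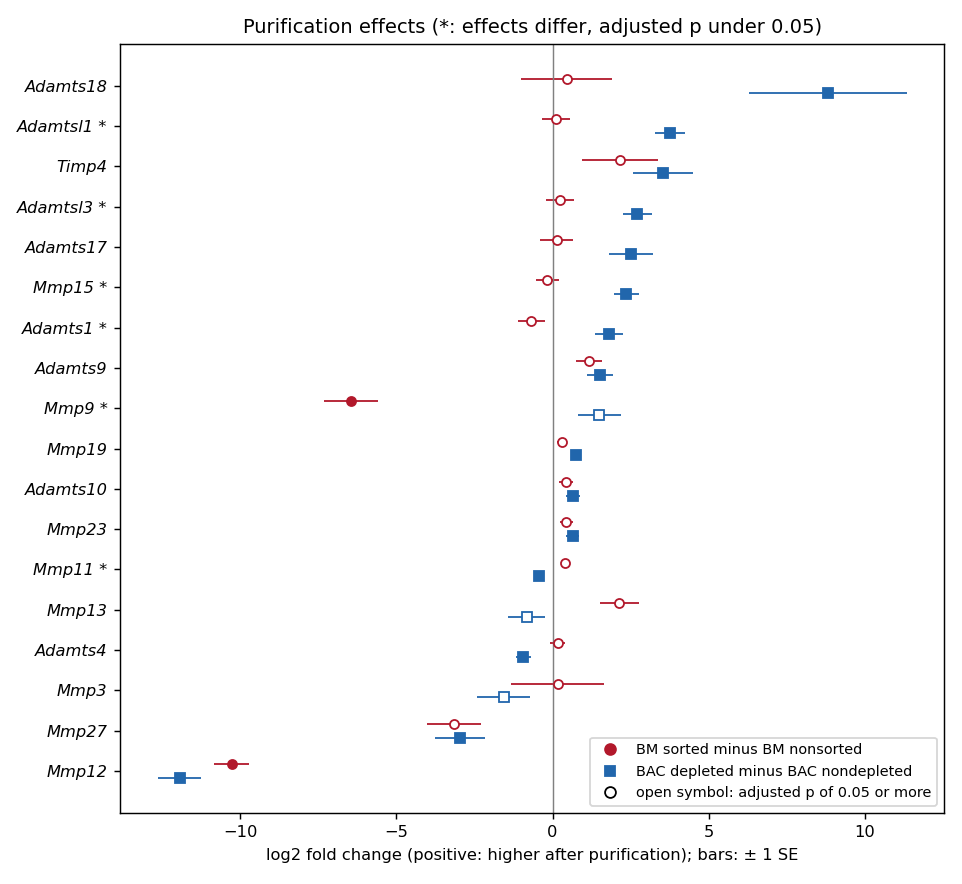
Log2 fold change of the members called in either purification, with Mmp13 and Mmp3 added, for BM sorted over BM nonsorted and for BAC depleted over BAC nondepleted. Bars are 1 SE, open symbols missed the threshold of an adjusted p under 0.05, and an asterisk marks a called difference between the effects; Mmp12 lies far to the left in both, and Mmp9 only for the sort. The plotted values of Mmp12 and Adamts18 with depletion depend on the prior count of the fit, since a group had 0 counts.

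Between the purified groups most tested members were called. Of 40, 12 were higher and 12 lower in BM sorted than in BAC depleted, 60% against 47.4% of all genes (22.9% higher and 24.6% lower). Without BAC depleted 1 there were 11 higher and 13 lower, of which 11 and 10 were among these, with Adamtsl4, Mmp16 and Mmp17 lost. Leaving out BM sorted 3 gave 7 lower, and a fit of these groups alone 6 lower. Between BM nonsorted and BAC nondepleted 14 were higher and 4 lower in marrow, 45% against 31.7% of all genes (14.9% higher and 16.8% lower). There the lower calls numbered 2 with no filter on low counts, and 2 without BM sorted 3, BM nonsorted 1, 2 or 3 or BAC nondepleted 1 or 2, 1 at a time. Libraries did not overlap for 13 higher and 10 lower members between the purified groups, against 52.8% of all genes (26.4% in each direction). Between the unpurified groups this held for 19 higher and 8 lower members, against 56% of all genes (27.3% higher and 28.7% lower). Median log2 fold changes were -0.14 between the purified groups, against -0.02 for all genes, and 0.61 between the unpurified groups, against -0.01.

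These comparisons share no library, so their calls can be set side by side. Called higher in marrow by both were 10 members: Adamts3, Adamts6, Adamts7, Adamts12, Adamts14, Adamts16, Mmp11, Mmp14, Mmp17 and Mmp25, which is 83.3% of the 12 calls between the purified groups and 71.4% of the 14 between the unpurified ones. Over all genes, 9.71% were called higher in both, which is 42.4% and 65.2% of the higher calls of those comparisons. Called lower in marrow by both were 4: Adamts15, Mmp3, Mmp16 and Timp2, which is 33.3% of the 12 and 100% of the 4, against 11.2% of all genes, or 45.6% and 66.6% of their lower calls. Adamtsl1, Mmp9 and Mmp15 were lower in marrow between the purified groups and higher between the unpurified groups. Each of the 10 higher in both had all of its marrow libraries above its bone-associated counterparts. These genes were picked by their calls on the same libraries, so this is no separate result. Over all genes, libraries were all higher in marrow for 26.4% between the purified and 27.3% between the unpurified groups.

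**Figure D5:**
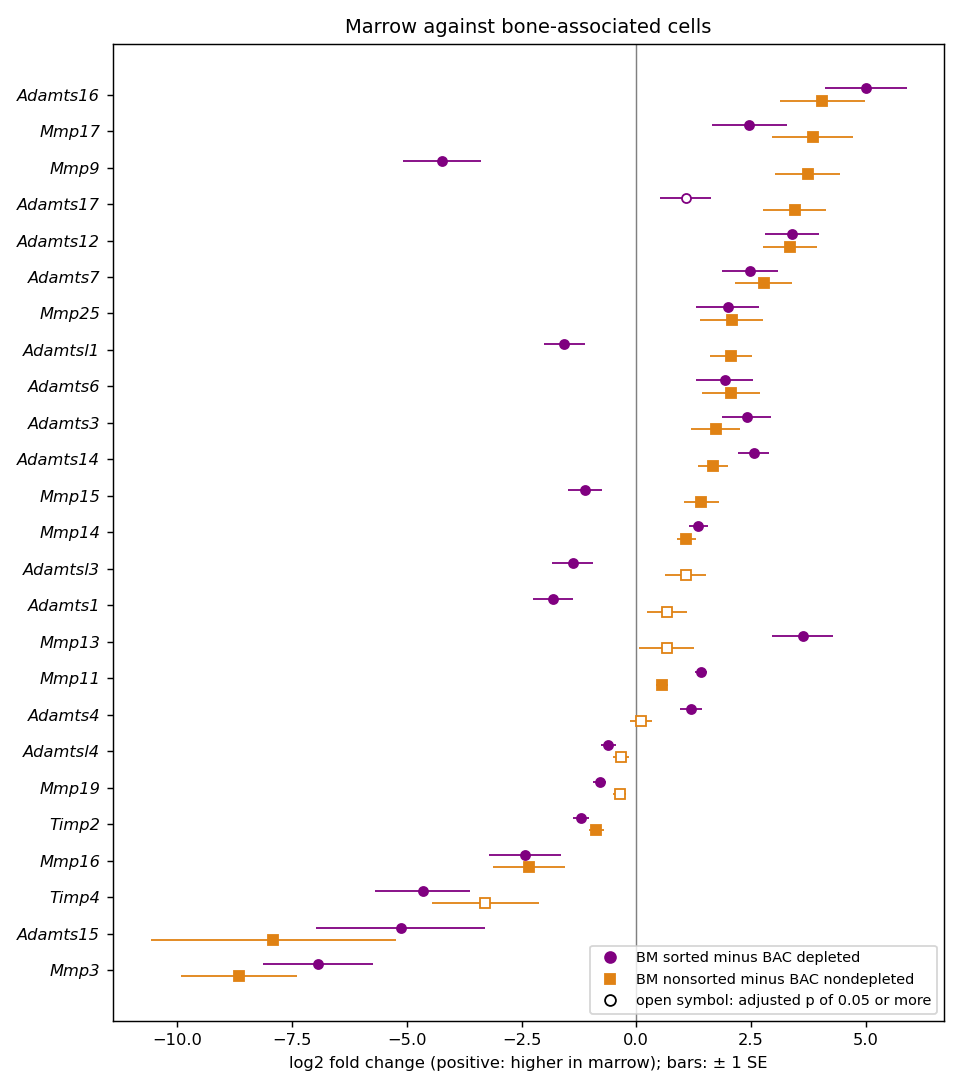
Log2 fold change of the 25 members called in at least 1 comparison between compartments, for BM sorted over BAC depleted and for BM nonsorted over BAC nondepleted, with bars of 1 SE and open symbols where the threshold was missed. Positive values are higher in marrow; Mmp3 and Adamts15 lie farthest to the left, Adamts12 and Adamts16 lie to the right in both comparisons, and Mmp9, Mmp15 and Adamtsl1 change side.

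The purification effects differed between compartments for 6 members, 5 lower (Mmp9, Adamtsl1, Mmp15, Adamts1 and Adamtsl3) and 1 higher (Mmp11) in marrow than in bone-associated cells, 15% of 40 against 8.06% of all genes (5.08% higher and 2.99% lower). For Mmp9 the difference came with a fall in marrow. For Adamtsl1, Adamtsl3, Mmp15 and Adamts1 it came with a rise in bone-associated cells, and for Mmp11 with a called fall there and an uncalled difference of similar size in the other direction in marrow (0.41 ± 0.13 for the sort and -0.45 ± 0.13 for the depletion). Only Mmp9 and Adamtsl1 kept their call with every library left out in turn. The number lower was 2 without BM sorted 3, BM nonsorted 2 or BAC nondepleted 1, and 3 without any other library of these 3 groups. The number higher was 0 without BM nonsorted 1 or 2, and 2 without BAC nondepleted 2.

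Genes that work with these enzymes were listed apart from the 51. In the plasminogen system, whose proteases activate pro-MMPs, 1 of 6 tested genes was higher and 1 lower after the sort, and 1 higher and 3 lower after depletion, where 6.23% and 37.3% of all genes were called. Plau, the urokinase gene, had 51.6, 61.2 and 69.5 CPM in BM sorted, against 203, 154 and 140.2 CPM in BM nonsorted, and it had 60.8, 123 and 81.3 CPM in BAC depleted, against 293, 345 and 268 CPM in BAC nondepleted. It fell with the sort (log2 fold change -1.45 ± 0.25, adjusted p = 0.00392) and with depletion (log2 fold change -1.77 ± 0.25, adjusted p = 0.000429), and its receptor gene Plaur fell with depletion (log2 fold change -3.04 ± 0.54, adjusted p = 0.00181). Plaur had a log2 fold change with depletion of -3.96 without BAC depleted 3. Between the purified groups 1 gene was higher and 2 lower in marrow, and between the unpurified groups 1 and 3, against 47.4% and 31.7% of all genes called. Plat, tissue plasminogen activator, was lower in BM nonsorted than in BAC nondepleted (log2 fold change -3.30 ± 0.50, adjusted p = 0.00162) and in BM sorted than in BAC depleted (log2 fold change -1.46 ± 0.47, adjusted p = 0.0272). Plat lost its call between the purified groups without BM sorted 1, 2 or 3 and BAC depleted 3, 1 at a time (adjusted p = 0.0501 to 0.122), and its log2 fold change was -0.78 without BAC depleted 3.

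Among 5 tested regulators of MMPs, 2 were higher and 2 lower in marrow in each comparison of compartments, 2 rose and 2 fell with depletion, and the sort called none (0 of 5 by edgeR and by DESeq2, with 1 higher at an unadjusted p under 0.05). The shares of all genes called were 47.4% between the purified and 31.7% between the unpurified groups, 37.3% with depletion and 6.23% with the sort. Reck, a membrane-anchored MMP inhibitor, had 50.7, 38.3 and 34.3 CPM in BM sorted, against 284, 203 and 420.3 CPM in BAC depleted, and 28.1, 29.1 and 28.4 CPM in BM nonsorted, against 82.8, 199 and 95.7 CPM in BAC nondepleted. Reck was lower in BM sorted than in BAC depleted (log2 fold change -2.88 ± 0.37, adjusted p = 0.000227) and in BM nonsorted than in BAC nondepleted (log2 fold change -2.14 ± 0.36, adjusted p = 0.00241), the same side as Timp2. Furin, a convertase with Mmp11 and Mmp14 among its targets, was higher in BM sorted than in BAC depleted (log2 fold change 1.12 ± 0.13, adjusted p = 0.000162) and in BM nonsorted than in BAC nondepleted (log2 fold change 0.59 ± 0.13, adjusted p = 0.00922). Mmp11 and Mmp14 lay on the same side. The other members were not grouped by whether Furin activates them, so this is no statement about its targets as a set. With depletion Reck and Tfpi2 rose, and Furin and Bsg, a cell-surface inducer of MMPs, fell. The changes were 1.27 ± 0.35 for Reck (adjusted p = 0.0166), -0.51 ± 0.13 for Furin (adjusted p = 0.0135) and -0.66 ± 0.22 for Bsg (adjusted p = 0.0378) as log2 fold changes. Reck lost its call with depletion without BAC depleted 3 (adjusted p = 0.0552), BAC nondepleted 1 (adjusted p = 0.061) and BAC nondepleted 3 (adjusted p = 0.0619). Furin lost its call with depletion without BAC nondepleted 2 (adjusted p = 0.0559). Bsg lost its call with depletion without BM sorted 2 or 3, BM nonsorted 2, BAC depleted 1 or 2 and BAC nondepleted 2 or 3, 1 at a time (adjusted p = 0.0525 to 0.122). Bsg lost its call between the unpurified groups without BM nonsorted 1 (adjusted p = 0.0599), BM nonsorted 2 (adjusted p = 0.0523) and BAC nondepleted 2 (adjusted p = 0.0604).

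Of 8 ADAM sheddases, which release proteins from the cell surface, 2 fell with the sort and 3 with depletion, against 6.06% and 19.9% of all genes lower, with none higher in either by edgeR, also at an unadjusted p under 0.05. DESeq2 called 1 higher and 4 lower with depletion. Adam8, a gene of myeloid cells, had 4.36, 4.76 and 3.58 CPM in BM sorted, against 423, 336 and 229 CPM in BM nonsorted and 4.87, 1.27 and 0.833 CPM in BAC depleted, against 479, 623 and 493 CPM in BAC nondepleted. Between compartments 1 was higher and 1 lower in BM sorted, and 2 higher and 1 lower in BM nonsorted, against 47.4% and 31.7% of all genes called. Adam12 lost its call between the unpurified groups without BM sorted 1, 2 or 3, BM nonsorted 1, 2 or 3 and BAC nondepleted 1, 2 or 3, 1 at a time (adjusted p = 0.0516 to 0.124). Adam33 had 0.269, 0.240 and 0.184 CPM in BM sorted, against 21.3, 5.34 and 7.999 CPM in BAC depleted and 0.369, 0.509 and 0.732 CPM in BM nonsorted, against 17.8, 15.8 and 29.1 CPM in BAC nondepleted. Of 6 cathepsin and cystatin genes, 3 fell with the sort and 4 with depletion, where 1 (Ctsk) rose, against 6.06% and 19.9% of all genes lower and 17.4% higher with depletion. Ctsk lost its call with depletion without BM sorted 1, BM nonsorted 1, BAC depleted 1 or 2 and BAC nondepleted 2, 1 at a time (adjusted p = 0.0505 to 0.109). Cathepsin S (Ctss), a macrophage protease, had 0, 0.0300 and 0.0919 CPM in BM sorted, against 226, 174 and 187 CPM in BM nonsorted and 0, 0 and 0.0417 CPM in BAC depleted, against 577, 547 and 512 CPM in BAC nondepleted. Cathepsin B (Ctsb) fell less, with log2 fold change -2.11 ± 0.17, adjusted p = 1.32e-05 for the sort and log2 fold change -2.23 ± 0.17, adjusted p = 5.63e-06 for the depletion.

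The procollagen C-proteinases trim the other end of the substrates of Adamts2, Adamts3 and Adamts14. With their enhancers, 4 genes were tested. Neither the sort nor the depletion gave a call (0 of 4 each by edgeR and by DESeq2, and 0 at an unadjusted p under 0.05). Over all genes, 6.23% were called with the sort and 37.3% with depletion. Bmp1, the main enzyme, was higher in BM sorted than in BAC depleted (log2 fold change 1.10 ± 0.25, adjusted p = 0.00514) and in BM nonsorted than in BAC nondepleted (log2 fold change 1.15 ± 0.25, adjusted p = 0.00794). Its enhancer Pcolce was lower in both (log2 fold change -1.14 ± 0.18, adjusted p = 0.000761 and log2 fold change -1.55 ± 0.19, adjusted p = 0.000556). Among 4 substrates of the proteoglycan-cleaving enzymes, versican (Vcan) was higher in marrow (log2 fold change 2.85 ± 0.48, adjusted p = 0.00108 between the purified groups and log2 fold change 3.40 ± 0.50, adjusted p = 0.00145 between the unpurified ones) and Comp lower (log2 fold change -8.22 ± 0.61, adjusted p = 2.34e-05 and log2 fold change -7.92 ± 0.60, adjusted p = 0.000113). Acan was lower in marrow as well, between the purified groups (log2 fold change -8.34 ± 1.46, adjusted p = 0.00126) and between the unpurified groups (log2 fold change -3.76 ± 1.25, adjusted p = 0.0432). Between the unpurified groups the ranges of Acan overlapped, and its call was lost in 9 of the fits with 1 library left out. Fibrillar collagens numbered 5, of which 2 (Col1a1 and Col3a1) fell with depletion, against 19.9% of all genes, and DESeq2 called 4 lower and 1 higher. Col3a1 lost its call with depletion without BM sorted 1, 2 or 3, BM nonsorted 1, 2 or 3, BAC depleted 3 and BAC nondepleted 1, 2 or 3, 1 at a time (adjusted p = 0.0503 to 0.152). Higher in BM sorted than in BAC depleted were 3 of them (Col1a1, Col1a2 and Col5a1), against 22.9% of all genes. Col1a2 lost its call between the purified groups without BM sorted 1, 2 or 3 and BAC depleted 1 or 2, 1 at a time (adjusted p = 0.0619 to 0.0781). Col5a1 kept its call with any 1 library left out (log2 fold change 1.99 ± 0.40, adjusted p = 0.00253).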

How the data were processed

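The deposited table held raw read counts per gene for 12 libraries. Per the submitters' processing notes, the authors used STAR 2.7.9a, featureCounts of Subread 2.0.1 and MultiQC 1.7 with the build GRCm39. Neither the annotation release nor the strand setting is named there, so genes whose exons overlap on opposite strands are uncertain. No column belonged to another sample. The 1442 entries named by an Ensembl identifier stayed in the table. Groups were taken from the sample titles.

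The counts went into edgeR 4.0.16 (R 4.3.3) with filterByExpr on the groups, TMM scaling, and 1 model with a mean per group over all 12 libraries (8 residual degrees of freedom, common dispersion 0.0969, robust quasi-likelihood F tests). Benjamini-Hochberg adjustment ran over all 15698 genes of each comparison, and a call is an adjusted p under 0.05. The SE of a log2 fold change is its size divided by the root of the F statistic, which is unreliable near 0 counts. The test was run on simulated counts before use. Where a group had 0 counts in all, a fold is a bound against 3 counts over the group. With 1 to 3 counts, it is given with an exact 95% counting interval. Amplified reads do not count molecules, so such bounds and intervals cover counting error only.

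Members and gene lists were chosen with earlier results of these data known. Members with a mean of at least 10 CPM in a group are given with a value in every library, the others by range, and of the related lists at most 2 genes higher and 2 lower per list and comparison are named, by smallest adjusted p. Exonic lengths came from GENCODE M21 (GRCm38), all 51 members matched, and promoters came from RefSeq (GRCm38.p6), with an entry for 36. No coordinates of GRCm39 were used. Alternatives were DESeq2 1.42.0 size factors, upper quartile scaling, the DESeq2 Wald test, no filter and a stricter filter (10 counts in 6 libraries), the compared groups alone, the replicate number as a block, and each library left out. No library of a group matched another within counting noise (chi-square per degree of freedom of at least 16.8).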

Additional observations from a re-analysis of the deposited data

Results flagged for a closer look

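For 6 members the effect of purification differed between marrow and bone-associated cells by edgeR's test of the difference itself, with Benjamini-Hochberg adjustment over all genes. The value given first is the log2 effect of the sort minus that of the depletion. For Mmp9 it was -7.96 ± 1.10 (adjusted p = 0.00405), with -6.46 ± 0.87 for the sort and 1.50 ± 0.69 for the depletion. For Adamtsl1 it was -3.64 ± 0.64 (adjusted p = 0.0107), with 0.11 ± 0.44 for the sort and 3.75 ± 0.49 for the depletion. Mmp9 thus fell in marrow, and Adamtsl1 rose in bone-associated cells. For Mmp15 it was -2.53 ± 0.54 (adjusted p = 0.0216) and for Mmp11 0.86 ± 0.19 (adjusted p = 0.0243). For Adamts1 it was -2.49 ± 0.62 (adjusted p = 0.0382) and for Adamtsl3 -2.47 ± 0.64 (adjusted p = 0.044). Sorting and magnetic depletion are different methods, each used in 1 compartment, so method and compartment cannot be told apart in these differences.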

How the results depend on the processing

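Gene by gene, 5040 alternative values were computed for members and called related genes. Of these 4695 kept their direction and their side of the threshold or were uncalled in both, 300 lost a call, 44 gained one, and 1 reversed. The reversal was Adamts12 with depletion, 0.19 in the analysis as reported and -0.94 without BAC depleted 2, with a range of -0.94 to 0.59 over the libraries left out. Scaling changed little: DESeq2 size factors lost or gained no call and upper quartile scaling lost 4. Counts of called members moved by over 1.5 times as follows, and the cause was not tested. For the sort, the DESeq2 Wald test called 1 higher in place of 0. For the depletion, 7 were higher in place of 11 with no filter on low counts, and 7 higher and 2 lower, in place of 11 and 4, with only the compared groups. Between the purified groups, 6 in place of 12 were lower with only the compared groups. Between the unpurified groups, 2 in place of 4 were lower with no filter. For the difference of the effects, 3 in place of 1 were higher with the DESeq2 Wald test, and 3 in place of 5 lower with no filter. With 1 library left out, higher calls ranged over 0 to 1 for the sort and 7 to 12 for the depletion. Lower calls ranged over 7 to 13 between the purified and 2 to 6 between the unpurified groups. For the difference of the effects they ranged over 0 to 2 higher and 2 to 5 lower. Correlations of same-numbered deviations were -0.22 to 0.21 for the sort, 0.04 to 0.24 for the depletion, 0.03 to 0.13 between the purified and -0.06 to -0.03 between the unpurified groups. Those of different-numbered deviations were -0.33 to 0.25, -0.16 to 0.09, -0.11 to 0.05 and -0.02 to 0.06 in the same order. With 3 libraries per group, each set against its group mean, these values cannot decide whether the replicate numbers pair the libraries. Fitted as a replicate block, the numbers gave 3 lower calls in place of 5 for the difference of the effects, and 14 gene calls were lost and 2 gained. Adjusted p-values of calls near the threshold, such as Adamts10, Mmp23, Mmp16 and Mmp25, turn on single libraries. Depth limits members under about 1 CPM.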

Other observations

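Further genes of the related lists were called, some of them at low levels. Tfpi2, a secreted serine protease inhibitor, was higher in BM sorted than in BAC depleted (log2 fold change 2.27 ± 0.82, adjusted p = 0.0431) and in BM nonsorted than in BAC nondepleted (log2 fold change 3.08 ± 0.95, adjusted p = 0.033), and rose with depletion (log2 fold change 3.01 ± 0.96, adjusted p = 0.0317). Tfpi2 lost its call with depletion without BAC depleted 1 or 2 and BAC nondepleted 1, 2 or 3, 1 at a time (adjusted p = 0.0578 to 0.0991), and its log2 fold change was 2.20 without BAC depleted 2. Tfpi2 lost its call between the purified groups without BM sorted 1 or 3, BM nonsorted 1, 2 or 3, BAC depleted 1 and BAC nondepleted 1 or 2, 1 at a time (adjusted p = 0.0557 to 0.136), and its log2 fold change was 3.07 without BAC depleted 2. Tfpi2 lost its call between the unpurified groups without BM nonsorted 1, 2 or 3 and BAC nondepleted 1, 2 or 3, 1 at a time (adjusted p = 0.0645 to 0.0939). Adam19 was higher in BM sorted than in BAC depleted (log2 fold change 2.63 ± 0.73, adjusted p = 0.0137) and in BM nonsorted than in BAC nondepleted (log2 fold change 3.45 ± 0.76, adjusted p = 0.00826). Adam19 had a log2 fold change between the purified groups of 4.01 without BAC depleted 2. Adam15 fell with the sort (log2 fold change -0.61 ± 0.10, adjusted p = 0.00246) and with depletion (log2 fold change -0.49 ± 0.10, adjusted p = 0.00326), by small amounts and with no overlap of libraries. Cst3, the gene of the cathepsin inhibitor cystatin C, was lower in BM sorted than in BAC depleted (log2 fold change -2.93 ± 0.31, adjusted p = 8.09e-05). Lrp1, a receptor that takes up proteases bound to their inhibitors, was lower in BM sorted than in BAC depleted (log2 fold change -0.97 ± 0.24, adjusted p = 0.00833). Serpine2, an inhibitor of urokinase, rose with the sort (log2 fold change 1.27 ± 0.32, adjusted p = 0.0442) and with depletion (log2 fold change 2.32 ± 0.33, adjusted p = 0.000484), and was lower in BM sorted than in BAC depleted (log2 fold change -2.42 ± 0.34, adjusted p = 0.000346). Serpine2 lost its call with the sort without BM sorted 1, 2 or 3, BM nonsorted 1 or 3 and BAC nondepleted 1 or 2, 1 at a time (adjusted p = 0.0638 to 0.191).

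Among markers of other cells, 6 endothelial markers summed to 2.696 to 3.68 CPM in BM sorted, against 4.57 to 6.52 CPM in BM nonsorted, and to 1.83 to 8.77 CPM in BAC depleted, against 6.33 to 10.5 CPM in BAC nondepleted. The 7 fibroblast or stromal markers summed to 34709 to 38784 CPM in BM nonsorted, against 30552 to 54543 CPM in BAC nondepleted.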
